A study of Oryza sativa with 216 samples.

Results

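The 100 probe sets described here had nearly the same mean level in both parents of a rice population of recombinant inbred lines (RILs) and widely different levels among the RILs. Of 57258 probe sets on the array, with the control probe sets left out, 21792 had a median over the RILs of 6 or more on the log2 scale, and in 12163 of these the parental means differed by less than 0.3. The 100 with the highest standard deviation (SD) over the RILs were taken, and they are called members below. The samples were untreated flag leaves at heading from the 2 *indica* rice lines Minghui 63 and Zhenshan 97 and from 210 RILs derived from their cross by single-seed descent. There was 1 single-colour array for each RIL, hybridised with RNA of 2 plantings mixed before labelling, and there were 3 arrays for each parent, labelled as biological replicates. A RIL value therefore has no replicate error of its own. The members were thus selected on the RIL median, the parental difference and the RIL SD, so the levels, the spread, the shape of the distributions and the lines outside the parental range are descriptions with no test. With 3 arrays a parent, the parental values are of limited precision.

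A RIL is an almost homozygous line that carries a mosaic of both parental genomes. Where a set of lines goes beyond both parents in a trait, the pattern is known as transgressive segregation, and it can be seen where each parent carries alleles that raise the trait at some loci and alleles that lower it at others. Parents with the same level of a transcript can therefore have progeny that differ. Levels measured by a short-oligonucleotide array can also differ between lines where the sequence under the probes differs.

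Leaf markers were high on all arrays, with a RIL median of 14.41 for a probe set of the small subunit of Rubisco and 14.1 for *CAB2R*, a chlorophyll a-b binding protein. The floral genes *OsMADS6*, *OsMADS7*, *OsMADS8*, *OsMADS13* and *OsMADS58* had RIL medians between 3.01 and 4.12, whereas *OsMADS16* was at 8.62 and *OsMADS3* at 5.72. *Lsi1*, a silicon transporter known from roots, was at 9.25. The median over all probe sets of an array lay between 5.15 and 5.32 in the RILs and between 5.15 and 5.25 in the parents.

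The SD of the members over the RILs ran from 0.694 to 3.17, with a median of 0.802, against a median of 0.190 in the other 12063 probe sets with like parental means. The lowest and the highest line of a member lay 3.04 to 8.98 apart, with a median of 4.10. Parental arrays of 1 line were not equally tight. The within-parent SD had a median of 0.533 in the members and 0.188 in the others, and set against the SD over the RILs it was 0.652 in the members (median) and 0.98 in the others. In 33 members the within-parent SD was above the SD over the RILs, and in 36 it was under 0.5 times that SD. In those 33 the means of 3 arrays were alike while the arrays were not. Leaving out 1 parental array at a time and applying the rule again kept between 54 (without Zhenshan 97 replicate 2) and 74 (without Zhenshan 97 replicate 1) of the 100 members, with 57 kept without Minghui 63 replicate 2 and 66 without replicate 3 of either parent, and 16 were in all 6 lists. The plot of levels shows both kinds, with parental arrays close together in some members and as far apart as the lines in others.

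**Figure D1:**
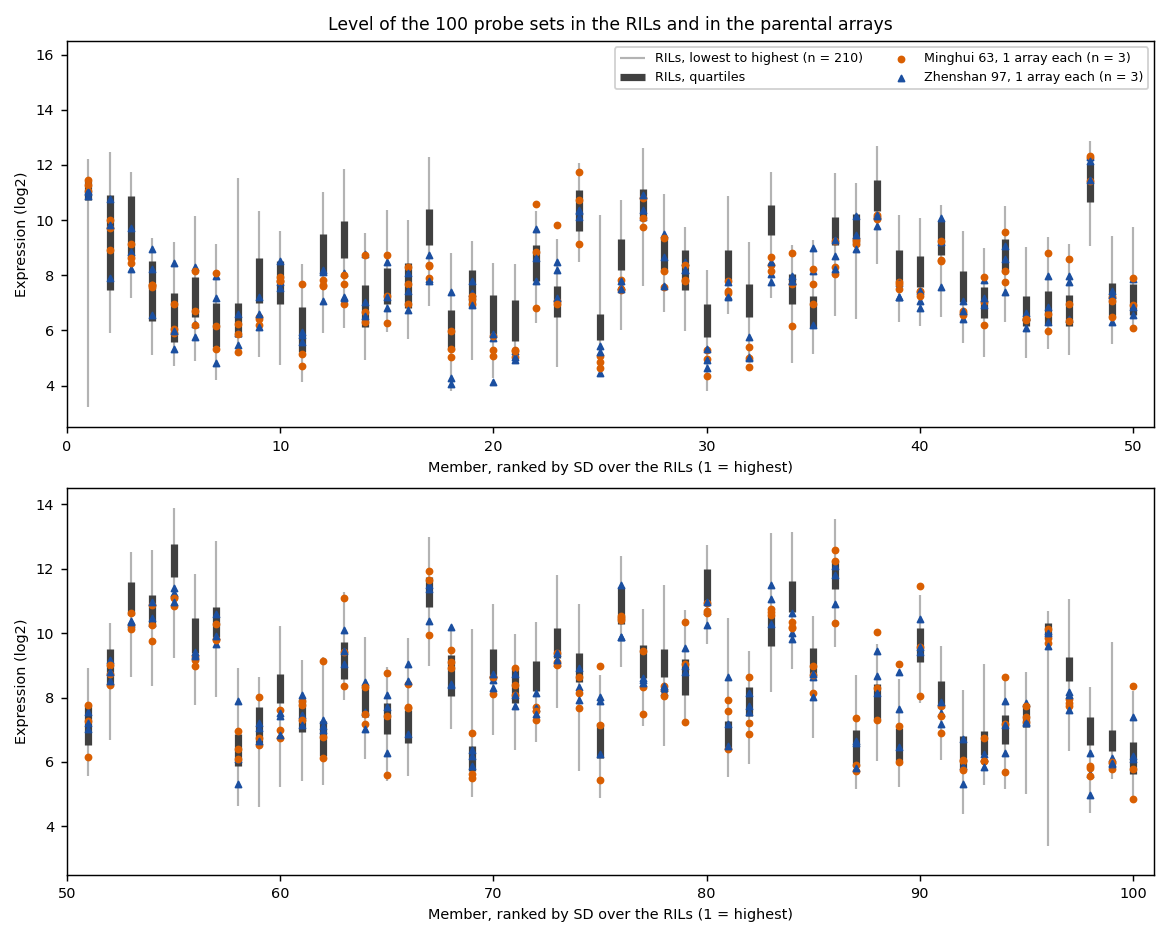
Level (log2) of each of the 100 members, ranked by SD over the RILs. Grey lines run from the lowest to the highest of 210 RILs, dark bars cover the quartiles, and points are single arrays of Minghui 63 (circles) and Zhenshan 97 (triangles). Member 1 reaches down to 3.22 although all 6 parental arrays lie between 10.86 and 11.44.

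At the edges of the rule, the last members by SD were OsAffx.32315.1.A1_at (0.697) and Os.12688.1.S1_at (0.694), and the first probe sets left out were OsAffx.32209.1.A1_at (0.693) and OsAffx.32263.1.A1_at (0.689). The parental difference, as Minghui 63 minus Zhenshan 97, was 0.297 in the member OsAffx.8236.1.S1_x_at and -0.299 in Os.27569.1.S2_at, against 0.303 in OsAffx.32260.1.A1_at and -0.307 in Os.18866.2.S1_at, which the limit left out. The lowest RIL medians among the members were 6.005 in Os.25230.2.A1_at and 6.05 in OsAffx.32212.1.A1_at. OsAffx.32278.1.A1_at (5.996) and OsAffx.32330.1.A1_at (5.84) fell below the limit.

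The gene table gave a gene for 46 of the members, with 45 different genes among them, and a locus description was found for 13. For 50 members neither was found, and they are called by probe set. Of the members, 33 had an identifier that begins with OsAffx, against 29.1% of the probe sets with like parental means. A suffix that marks probes shared between transcripts (_x_at or _s_at) was carried by 38 members, against 24.1% of the same probe sets. In these 38 the level cannot be assigned to 1 transcript.

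OsAffx.20641.1.S1_at varied most. Its lines formed 2 clusters with nothing between 4.53 and 9.86: 45 of 210 lines were low, with a mean of 3.66 ± 0.25 (SD), and the other lines were high, with a mean of 11.32 ± 0.43 (SD). The low lines made up 21.4% of the population (exact Clopper-Pearson 95% interval 16.1% to 27.6%, counting error only). The 3 arrays of Minghui 63 were at 11.04, 11.44 and 11.28 and those of Zhenshan 97 at 11.06, 10.86 and 11.004, so all 6 parental arrays stood in the high cluster. The within-parent SD was 0.0509 times the SD over the RILs, the smallest such ratio of the 100 members. No gene or description was found for this probe set, and its SD without the 2 farthest lines was 3.13.

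A mixture of 2 normal distributions described the lines better than 1 in 28 members by the Bayesian information criterion, with at least 6 lines in each cluster and the cluster means apart by an Ashman's D over 2. Of all 12163 probe sets with like parental means, 2.33% did so. The shape comes from the values that gave the SD, so nothing is read from the contrast. With D over 3, 14 members remained. Any gain in the criterion counted, and the gain differed widely. It was 652.5 in OsAffx.20641.1.S1_at but only 0.074 in Os.30557.2.S2_x_at, 0.50 in Os.52833.1.S1_at, 0.74 in Os.25230.2.A1_at and 2.07 in Os.459.1.S1_at. The split is marginal in these last-named members. The cluster means of the 28 lay 1.21 to 7.66 apart, with a median of 1.77, and OsAffx.20641.1.S1_at was the only one with a gap between its clusters of over 1. All 6 parental arrays were nearer the high cluster in 3 members and nearer the low cluster in 4. In the other 21 the parental arrays fell on both sides.

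Few of the clustered members have a description. OsAffx.5196.1.S1_at, annotated as a lectin-like receptor kinase (LOC_Os07g03900), a membrane kinase with a sugar-binding outer domain, had 49% of its lines in a low cluster with a mean of 7.49 ± 0.66 (SD) and 51% in a high one with a mean of 10.85 ± 0.57 (SD). Minghui 63 was at 9.69, 8.90 and 9.99 and Zhenshan 97 at 10.76, 7.91 and 9.81 on single arrays. The parents alike in mean were thus spread over both clusters in this gene. OsAffx.32060.1.S1_s_at, a pathogenesis-related protein 10 (LOC_Os12g36860) of a family induced by infection, had lines from 4.71 over a median of 6.43 to 9.20. Arrays of Minghui 63 gave 6.04, 6.96 and 5.92, and those of Zhenshan 97 gave 8.46, 5.31 and 5.98. Os.459.1.S1_at, a thaumatin (LOC_Os03g46070) of another defence protein family, ran from 4.21 over 6.07 to 9.13, with 140 low and 70 high lines. For the thaumatin, Minghui 63 was at 6.14, 8.08 and 5.33 and Zhenshan 97 at 7.98, 4.82 and 7.18. In both defence genes the 6 parental arrays covered most of the range of the lines, and 42 and 28 of 210 lines lay outside it.

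Os.53353.1.S1_at (LOC4326482, LOC_Os01g25010) is annotated as a flavonol synthase or flavanone 3-hydroxylase, an oxygenase family that makes flavonoids. Of its lines, 51% were low with a mean of 6.35 ± 0.49 (SD) and 49% high with a mean of 8.52 ± 0.42 (SD). The Minghui 63 arrays were at 7.64, 7.59 and 7.66, just above the lowest line of the high cluster at 7.58, and Zhenshan 97 at 8.23, 6.57 and 8.94. Os.49042.1.A1_s_at, with a suffix for shared probes, is assigned to *OsDOS* (LOC4327304, LOC_Os01g09620), a CCCH-type zinc finger protein known to delay leaf senescence in rice. It had 98 low lines with a mean of 8.50 ± 0.52 (SD), and the other lines were high with a mean of 10.74 ± 0.57 (SD). Minghui 63 was at 9.15, 8.43 and 8.61 and Zhenshan 97 at 8.21, 8.85 and 9.72, so that 110 lines lay above all parental arrays and 60 of them by over 1. The high cluster of *OsDOS* held 1 parental array, and the low cluster the other 5.

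Smaller clusters were also found. Os.39480.1.A1_at had 20 low lines with a mean of 5.69 ± 0.39 (SD), and all parental arrays, from 7.22 to 7.84, were nearer the 190 high lines with a mean of 7.51 ± 0.46 (SD). Os.15271.1.S1_s_at, also with a suffix for shared probes, is assigned to *eIF4G* (LOC4343565), the scaffold of the translation initiation complex. It had 11 low lines with a mean of 6.31 ± 0.15 (SD). Its other lines had a mean of 8.18 ± 0.60 (SD), and the parental arrays ran from 6.91 to 7.87. Os.17766.1.S1_at (LOC4340544) had 78 low lines, and the cluster means were 1.40 apart. OsAffx.25311.1.S1_at had 37 low lines and Os.17125.1.S1_at (LOC4346078) 21. Os.56276.1.S1_at (LOC4345298) had 8 low lines, at a mean of 4.97, below the other lines at a mean of 6.98.

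**Figure D2:**
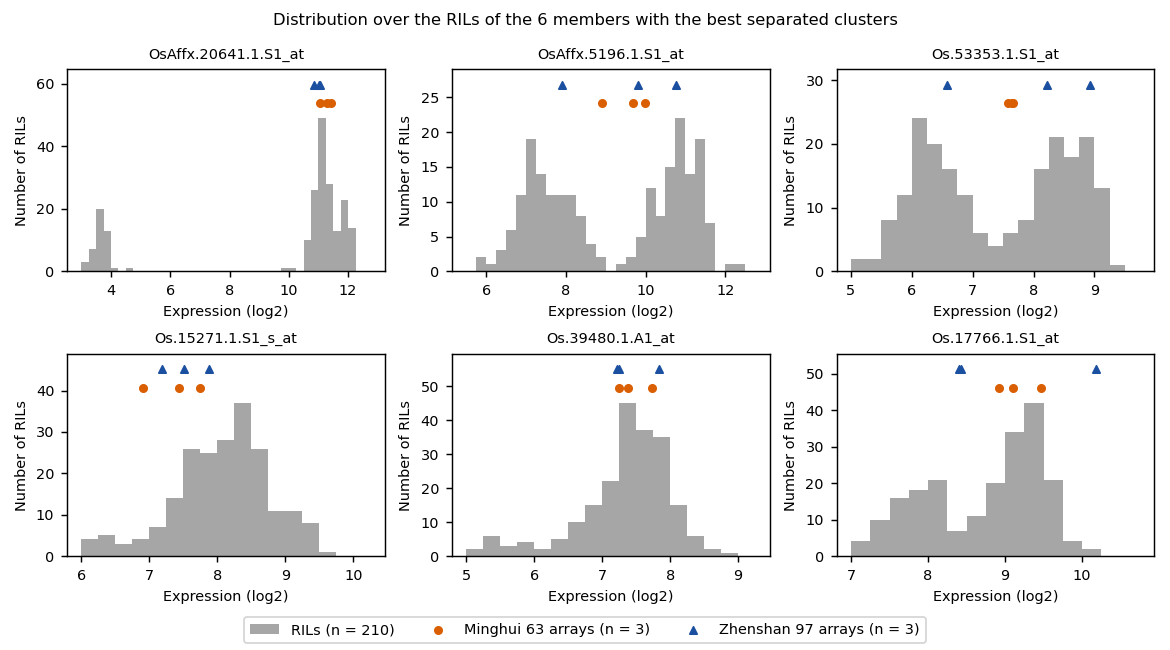
Number of RILs by level (log2, bins of 0.25) for the 6 members with the highest Ashman's D, with single arrays of Minghui 63 (circles) and Zhenshan 97 (triangles) above the bars. OsAffx.20641.1.S1_at has 45 lines near 3.66 and the others near 11.32, and all parental arrays lie over the high lines.

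Which lines were low differed from member to member. Of the 45 low lines of OsAffx.20641.1.S1_at, 25 were also low in the receptor kinase gene OsAffx.5196.1.S1_at and 20 were high there. None of them was among the 37 low lines of OsAffx.25311.1.S1_at. *OsDOS* and Os.30557.1.S1_at of the florigen-like gene *OsFTL1*, both on chromosome 1, put 78.6% of the lines on the same side: 84 lines were low in both and 81 high in both. With the other *OsFTL1* probe set, Os.30557.2.S2_x_at, *OsDOS* shared the side in 53.3% of the lines, 92 low in both and 20 high in both. The split of that probe set is marginal, so this count is uncertain. OsAffx.5196.1.S1_at and Os.53353.1.S1_at put 47.6% of the lines on the same side. The pairs of members counted here were picked with their values known.

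The other members of highest SD did not meet the same criteria, except Os.25230.2.A1_at and Os.28435.4.S1_x_at (LOC4349363), with 55 low lines in the first and 52 high lines in the second. In Os.7743.1.S1_at and Os.51343.1.S1_at the mixture of 2 described the lines better than 1, but Ashman's D was only 1.76 and 1.85. Os.53660.1.S1_at (LOC4330189) ran from 4.90 over a median of 7.2 to 10.14, with Minghui 63 at 6.71, 8.14 and 6.19 and Zhenshan 97 at 8.28, 6.25 and 5.77. Os.4159.1.S1_at (LOC4325938) ran from 4.94 over 6.80 to 9.54, with Minghui 63 at 6.29, 8.75 and 6.65 and Zhenshan 97 at 8.77, 7.04 and 6.53. In both genes 1 array of each parent stood well above the others of that parent. In Os.4159.1.S1_at 6 lines lay above all parental arrays, and in Os.53660.1.S1_at 39 did, 11 of them by over 1. Os.51343.1.S1_at (LOC4331988) differed from both, with Minghui 63 at 7.79, 7.80 and 7.95 and Zhenshan 97 at 7.75, 8.50 and 7.55. Its lines ran from 4.73 over 7.81 to 9.61, and 86 lay below all parental arrays, 34 of them by over 1. OsAffx.32326.1.S1_x_at ran from 5.02 over 7.68 to 10.33, Os.26455.2.S1_s_at from 5.91 over 8.62 to 11.02 and Os.48031.1.S1_x_at from 6.07 over 9.21 to 11.85. All parental arrays were exceeded by 69% of the lines in the first, 66.7% in the second and 87.1% in the third.

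A few members owed their place to few lines. In Os.5442.1.S1_at (LOC4347046) lines R003 and R002 were at 3.40 and 3.53, and the next line was at 9.44, with a median of 10.14. The parental arrays were at 9.70, 9.85 and 10.12 in Minghui 63 and at 10.06, 9.62 and 10.02 in Zhenshan 97. The skewness was -8.00 and the excess kurtosis 72.9, and without these 2 lines the SD fell to 0.265, against 0.699 over all lines. The lowest skewness after it was that of OsAffx.20641.1.S1_at (-1.34), then Os.39480.1.A1_at (-1.16), OsAffx.32234.1.A1_x_at (-0.87) and OsAffx.32255.1.S1_x_at (-0.84). Lines R239 and R046 were the 2 lowest in both of the last-named.

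On the high side, Os.3808.4.S1_x_at (LOC4325662) had a skewness of 2.45, with line R196 at 10.13 and line R012 at 9.96 above a median of 6.06. In Minghui 63 it was at 5.63, 5.49 and 6.89 and in Zhenshan 97 at 6.38, 6.18 and 5.86. Os.7743.1.S1_at (LOC4340504) had a skewness of 1.49, with R196 at 11.53 above a median of 6.29, and 34 lines lay over 1 above the parental arrays. Os.53704.1.S1_x_at (LOC4339617), with a skewness of 1.45, also had R196 as its highest line, at 10.49. In OsAffx.32315.1.A1_at (1.49) and OsAffx.32212.1.A1_at (1.34) the highest line was R094, at 9.73 and 10.18. Over all members the skewness had a median of -0.13, was positive in 39 and negative in 61.

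Transgression was described by counting the lines outside the range of all 6 parental arrays. Each line is 1 array whose error is not estimated, so a line outside the range need not differ from the parents. The median member had 51.4% of the lines outside, and single members had from 0.476% to 95.7%, against a median of 31% in the other probe sets with like parental means. The SD that chose the members enters these counts, so the contrast is a description. Lines lay on both sides of the parental range in 88 members, and more lay above than below in 65, more below in 34 and as many in 1. Beyond the range by over 1, there was at least 1 line in 83 members, at least 21 lines in 41, and lines on both sides in 31. With the range of the 2 parental means in place of the 6 arrays, the median was 95.7% of the lines.

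The largest counts outside were in OsAffx.32230.1.A1_at with 95.7% of the lines and in Os.9209.2.S1_at with 95.2%, which were all above. The smallest were in Os.12688.1.S1_at and in Os.15197.1.S1_at, with 1 line each. Os.15197.1.S1_at measures *OsITPK3* (LOC4333967), an inositol phosphate kinase of phytic acid synthesis. Its lines ran from 7.84 over 9.66 to 11.20, inside the Minghui 63 arrays at 9.57, 11.45 and 8.04 but for 1 line, while Zhenshan 97 was at 9.41, 10.43 and 9.56. Per line, between 27 (R125) and 72 (R073) of the 100 members lay outside the parental range, with a median of 51.

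Members on the functional lists, which were searched by name or description in 20 of the members, were few. Os.49648.1.S1_at measures *HSP18.6* (LOC4330933), a small heat shock protein that holds unfolding proteins, and ran from 7.11 over 9.14 to 10.74. Minghui 63 was at 8.33, 7.49 and 9.46 and Zhenshan 97 at 8.61, 8.45 and 8.53, and 72 lines lay above them. The flowering list had *OsFTL1*, the defence list the pathogenesis-related protein 10 and the thaumatin, and the flavonoid list LOC4326482, all described in other paragraphs. Beyond the lists, *OsNPR3* (Os.11575.1.S1_at, LOC4333666), a relative of the salicylate co-regulator NPR1, ran from 6.09 over 7.85 to 9.89. *RH2* (Os.45928.1.S1_at, LOC4324018), an RNA helicase, ran from 5.93 over 7.03 to 9.76. Both were named with their values known.

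Over the 210 RILs the 4950 pairs of members had a median absolute correlation of 0.118, lower than the 0.179 of all pairs of probe sets with like parental means. Their correlations were nevertheless more often high: 428 pairs (8.65%) had an r of 0.60 or more, against 0.939% of all those pairs. On the negative side, 36 pairs (0.727%) had an r of -0.52 or less, against 0.811%. Of the 428 positive pairs, 1 joins the probe sets of 1 gene, *OsFTL1*, 398 lay within 1 of the groups of members described next, and 346 of those were in the largest group. Average linkage on 1 minus r, cut at 0.5, put 56 members in 4 groups of at least 4, and 44 were in none. There were 23 members without any partner past either threshold. The heat map of correlations shows 1 large block and 3 small ones.

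**Figure D3:**
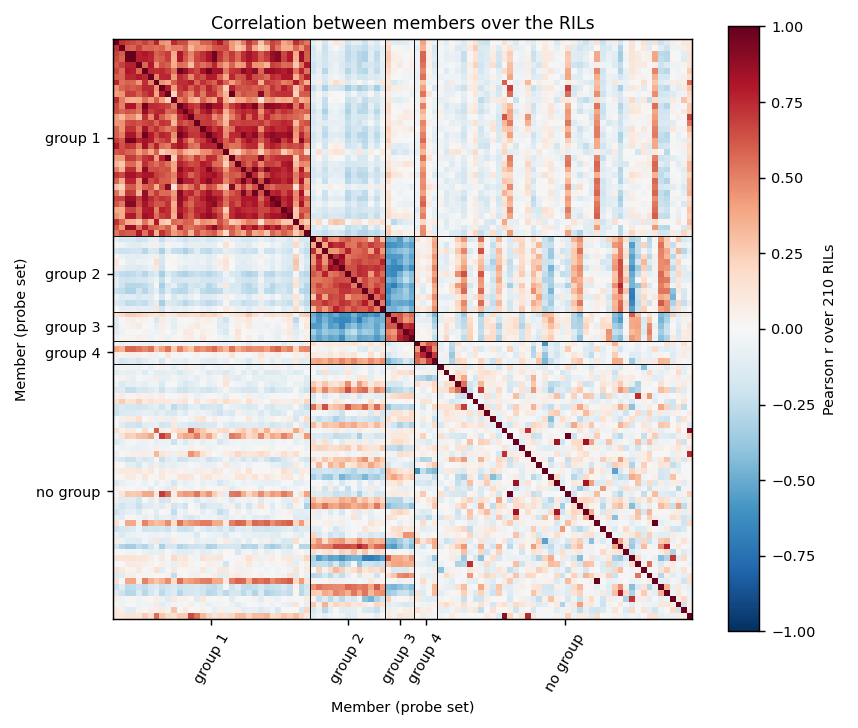
Pearson correlation over 210 RILs between all 100 members, ordered by co-varying group (group 1 with 34 members, group 2 with 13, group 3 with 5, group 4 with 4, then 44 in no group). Red is positive and blue negative. Groups 2 and 3 stand opposite each other.

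Group 1 had 34 members with a median r of 0.649 among them, and 21 of these had OsAffx identifiers. A gene was found for 5 of them. Identifiers from OsAffx.32199.1.A1_x_at on, which make up 0.674% of the probe sets with like parental means, gave 20 members and 16 of group 1. This range starts at a member and was set with the members known, so nothing is read from the contrast. The leading members by mean correlation were OsAffx.30475.1.S1_s_at, OsAffx.30475.9.S1_s_at, OsAffx.30475.5.S1_x_at, OsAffx.32332.1.S1_x_at and OsAffx.32268.1.S1_x_at, between 0.716 and 0.752. The first 3 share a base number in their identifiers, and 21 of the 34 carry a suffix for shared probes. Among the named genes of the group was *eIF4G*. Outside the members, 291 probe sets had an r of 0.60 or more with the mean of the group.

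The mean of group 1 ran from 6.89 in line R239 over 8.98 to 10.23 in line R020. On the parental arrays it was at 8.17, 8.01 and 7.91 in Minghui 63 and at 8.04, 8.33 and 7.76 in Zhenshan 97, so 170 lines lay above all parental arrays and 14 below. The level moved with the line number. Blocks of 10 consecutive line numbers held 53.4% of the variance of the group mean, and 22 of 25 blocks averaged above all parental arrays and 2 below. Lines R111 to R120 had the highest block mean, 9.94 over 8 lines. In single members of the group the blocks held 34.2% to 67.99% of the variance, against a median of 18.02% over all members and of 22.7% over the other probe sets with like parental means. The labels do not say what the line numbers stand for.

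Control probe sets moved with group 1 as well. Its mean had an r of 0.754 over the 210 lines with the 28S ribosomal RNA probe set, of 0.611 with 25S and of 0.554 with 18S. Within line blocks the r with 28S was 0.638. The 28S level ran from 10.17 over 11.81 to 12.61 in the RILs and from 11.41 to 12.23 on the parental arrays. With the plastid gene *atpI* the r was 0.623, with the array median 0.190 and with the mean of the hybridisation spikes -0.0148. Their part in the spread of group 1 was not tested. With 28S regressed out of the members, the median r within group 1 was 0.455, and with the block means removed it was 0.611.

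Group 2 had 13 members with a median r of 0.619. It held Os.14076.1.S1_s_at (LOC4330263), Os.20614.2.S1_at (LOC9267767, LOC_Os04g49757), a purine permease that carries bases across membranes, Os.7612.1.S1_at (LOC4334617), Os.22910.1.S1_at and Os.26511.1.S1_at. *OsITPK3* was also in it. Os.22910.1.S1_at measures *Os4bglu12* (LOC4336145, LOC_Os04g39880), a beta-glucosidase that releases sugars and hormones from their glucosides. Its lines ran from 6.03 over 7.90 to 9.67, with Minghui 63 at 8.31, 10.02 and 7.30 and Zhenshan 97 at 9.46, 8.14 and 8.66. No line lay above these arrays and 47 lay below. The mean of group 2 was at 7.53, 9.26 and 6.44 in Minghui 63 and at 8.02, 7.47 and 7.63 in Zhenshan 97, against 6.21 over 7.64 to 9.36 in the RILs. The 3 Minghui 63 arrays thus covered most of the range of the lines, and the within-parent SD was 1.47 times the SD over the RILs in the median member of the group.

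Group 3 had 5 members with a median r of 0.604. These were OsAffx.30204.1.S1_at, Os.36767.1.S1_at, which measures the calmodulin-like *CML16* (LOC4325693) of calcium signalling, Os.7901.1.S1_at (LOC4337461), Os.27569.1.S2_at (LOC9271885) and Os.10150.1.S1_at (LOC4332151). *CML16* ran from 7.2 over 8.58 to 10.71, with Minghui 63 at 9.03, 7.25 and 10.35 and Zhenshan 97 at 8.99, 9.55 and 8.79. The mean of the group was at 8.31, 7.14 and 9.52 in Minghui 63 and at 8.70, 8.43 and 8.13 in Zhenshan 97, against 6.70 over 8.23 to 9.58 in the RILs. Minghui 63 replicate 2 was high in group 2 and low in group 3, and replicate 3 the other way round.

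The means of groups 2 and 3 had an r of -0.757 and a Spearman's rho of -0.752 over the 210 lines, and the plot of the groups puts the Minghui 63 arrays along the same slope as the lines. Of single pairs, the lowest r were those of *HSP18.6* with *OsITPK3* (r = -0.70, rho = -0.71) and with *Os4bglu12* (r = -0.69, rho = -0.68). These pairs were picked for their low values among 4950, so no test is given. With the 2 lines that lay farthest out in *HSP18.6* left out, r was -0.70 and -0.67, and within line blocks -0.71 and -0.67. Group 2 had an r of -0.404 with the array median and of -0.548 with the mitochondrial gene *cob*, and group 3 of 0.106 and 0.480. The 3′ minus 5′ difference of the ubiquitin control, a sign of RNA quality, had an r of -0.359 with group 2, of 0.281 with group 3 and of 0.318 with group 1. For the actin, GAPDH, EF1a and cyclophilin controls the r of this difference with the same groups was smaller, between -0.148 and 0.158. Their part in the relation was not tested. With the first 5 principal components of all probe sets removed, the median r between members of groups 2 and 3 was -0.089, against -0.50 on the deposited values. The medians within the groups were then 0.194 and 0.240.

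**Figure D4:**
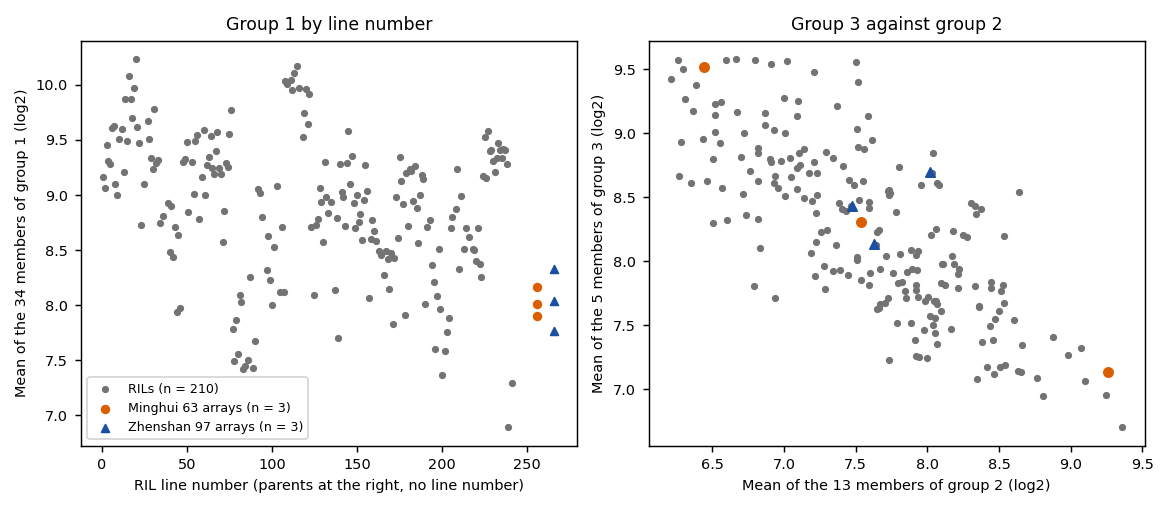
Left, mean level (log2) of the 34 members of group 1 by RIL line number, with the single arrays of Minghui 63 (circles) and Zhenshan 97 (triangles) at the right; 170 of 210 lines lie above all parental arrays. Right, the mean of group 3 against the mean of group 2 (log2), with an r of -0.757 over the lines and Minghui 63 arrays near both ends.

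Group 4 had 4 members with a median r of 0.588. Os.30557.1.S1_at and Os.30557.2.S2_x_at, the second with a suffix for shared probes, are assigned to *OsFTL1* (LOC4324585, LOC_Os01g11940 for the first), a relative of the florigen FT. *OsDOS* belongs to the group as well, and for Os.9842.1.S1_at no gene was found. The first *OsFTL1* probe set ran from 6.50 over 9.47 to 10.55, with Minghui 63 at 8.54, 9.25 and 8.52 and Zhenshan 97 at 9.20, 10.08 and 7.58. The second ran from 4.26 over 6.43 to 8.44, with Minghui 63 at 5.30, 5.81 and 5.08 and Zhenshan 97 at 5.71, 5.88 and 4.12. For the second, 150 lines lay above all parental arrays and none below, and for the first 34 above and 6 below. Both met the criteria for 2 clusters, the second only just, with a gain of 0.074 in the Bayesian information criterion. Their correlation is therefore given within the clusters of the first: 0.229 in its 95 high lines and 0.675 in its low lines. Outside the members, the probe sets most like the mean of the group included those of LOC_Os01g11720, a transposable element protein (r = 0.82), of *OsFTL1* again (0.80), of LOC_Os01g12000 (0.74) and of LOC_Os01g11650, a lipase (0.74). By their locus names these lie near *OsFTL1* on chromosome 1. With the 28S probe set the mean of group 4 had an r of 0.123.

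Among the strongest positive pairs were OsAffx.32199.1.A1_x_at with OsAffx.23039.1.S1_x_at (r = 0.99, rho = 0.99), which are in no group, and Os.48031.1.S1_x_at with OsAffx.32314.1.S1_at of group 1 (r = 0.99, rho = 0.99). Within line blocks both had an r of 0.99. The first of these probe sets was at 11.94, 9.95 and 11.65 in Minghui 63 and at 11.37, 11.49 and 10.38 in Zhenshan 97. OsAffx.23039.1.S1_x_at was at 12.57, 10.32 and 12.25 in Minghui 63 and at 11.82, 12.10 and 10.92 in Zhenshan 97, so the same arrays were high and low. All 4 carry shared probes or unnamed targets, and probe sets that read the same RNA cannot be told apart from different RNAs that vary together. In group 3, LOC4337461 and *CML16* had an r of 0.41 in the 86 low lines and 0.81 in the high lines of LOC4337461, which has 2 clusters.

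The distance of the RIL mean from the parents was compared with limma, as the RILs minus the mean of both parental means, over all 57258 probe sets. The rule did not use this difference itself, but it did use the level of the RILs, since a member needed a RIL median of 6 or more. A member with parents under 6 could enter the list only where the RILs were higher. There were 11 members with a parental mean under 6, and their differences, 0.25 to 1.94, are given as a description. The fit covered them as well, but nothing is read from their calls. At an adjusted p under 0.05, 18 of the 100 members passed, against 7.49% of all probe sets. The RILs were higher in 16 (3.28% of all probe sets) and lower in 2 (4.21% of all), and 7 of the 16 were among the 11 members with low parents. Of the 89 members with a parental mean of 6 or more, 9 were higher and 2 lower. All 9 were in group 1, whose members move together and are not separate pieces of evidence. Every member has a RIL median of 6 or more, and among the 21792 probe sets with such a median, tested and adjusted on their own, 17.6% were called (8.02% higher and 9.62% lower), with 23 of the members, 20 higher and 3 lower. Since the median limit enters these counts, nothing about the members is read from them. The RIL arrays carry mixed RNA of 2 plantings and the parental arrays are labelled as single replicates, so genotype and handling cannot be told apart.

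Among the members with parents at 6 or more, Os.48031.1.S1_x_at had the largest difference, 1.71 (standard error 0.41, adjusted p = 0.00197 by limma). It was followed by OsAffx.8236.1.S1_x_at with 1.68 (standard error 0.35, adjusted p = 0.000237 by limma) and OsAffx.32314.1.S1_at with 1.52 (standard error 0.40, adjusted p = 0.006 by limma), all of group 1. OsAffx.8236.1.S1_x_at ran from 7.16 over 10.06 to 11.75, with Minghui 63 at 8.38, 8.16 and 8.67 and Zhenshan 97 at 8.06, 8.49 and 7.77. Every parental array was exceeded by 91.9% of its lines, and 3 lines lay below. Of the members with low parents, Os.9209.2.S1_at, for which no gene was found, was 1.94 higher in the RILs. Its lines ran from 5.11 over 6.97 to 9.19, with Minghui 63 at 4.67, 5.41 and 5.0 and Zhenshan 97 at 5.75, 5.03 and 4.98, and 200 lines lay above all 6 parental arrays. Os.50615.1.S1_at (LOC9267065) was 1.42 higher and ran from 3.82 over 6.48 to 8.18, with Minghui 63 at 4.97, 5.30 and 4.36 and Zhenshan 97 at 4.94, 5.33 and 4.63. Here 85.2% of the lines lay above the parental arrays and 2 lines below.

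Of the genes with a name, the first *OsFTL1* probe set had a difference of 0.43 with an adjusted p of 0.524 by limma. The second *OsFTL1* probe set (1.21), Os.52565.1.S1_at (LOC4336689, 1.25) and Os.56276.1.S1_at (LOC4345298, 1.21) have parental means under 6, and their differences are not tested. On the lower side, OsAffx.21790.1.S1_at (LOC_Os01g67540), an AMP-binding domain protein of the family that activates acids, fell by 0.92 (adjusted p = 0.0487), and Os.33704.3.S1_x_at fell by 0.91 (adjusted p = 0.0455), both by limma. The first had Minghui 63 at 8.43, 7.66 and 7.70 and Zhenshan 97 at 6.88, 8.50 and 9.04, and its lines ran from 5.55 over 7.06 to 9.85. The second had Minghui 63 at 7.10, 9.03 and 5.99 and Zhenshan 97 at 7.64, 6.46 and 8.80, and its lines ran from 5.23 over 6.53 to 8.59. The RILs and the parental arrays overlapped in both. With a separate weight for the parental arrays neither passed (adjusted p = 0.1081 and 0.1005 by limma). Of the 6 fits without 1 parental array, the first passed in 1 and the second in 2. OsAffx.20641.1.S1_at had a difference of -1.44 with an adjusted p of 0.584, Os.17271.1.S1_at (LOC4351628), a citrate-binding protein, of -0.98 with 0.0649, and Os.52833.1.S1_at (LOC4344496) of -0.85 with 0.173, all by limma.

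**Figure D5:**
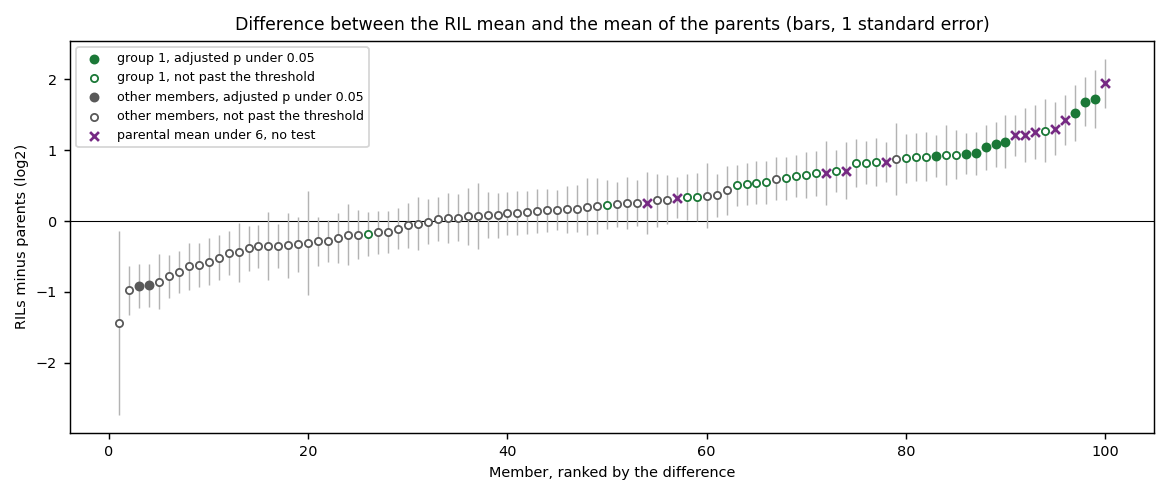
Difference of the RIL mean from the mean of both parental means (log2) for each of the 100 members, in order of size, with 1 standard error from limma. Filled points passed an adjusted p of 0.05, 9 of them above 0 and all of group 1 (green), and 2 below 0. Crosses are the 11 members with a parental mean under 6, which had to be higher in the RILs to enter the list.

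The count of 18 depended on the parental arrays. It was 7 without Zhenshan 97 replicate 3 (4.24% of all probe sets), 9 without Minghui 63 replicate 1 (4.5%), 9 without Minghui 63 replicate 2 (5.18%) and 11 without Zhenshan 97 replicate 1 (5.22%), and it was 7 with a separate weight for the parental arrays (4.67%). Among members with a parental mean of 6 or more, 3 of group 1 passed whichever parental array was left out: Os.48031.1.S1_x_at, OsAffx.8236.1.S1_x_at and OsAffx.32314.1.S1_at. Os.9209.2.S1_at, Os.50615.1.S1_at and Os.56276.1.S1_at did so too, but their parental means are under 6, so nothing is read from their calls. Of the functional lists, those with a member had between 16 and 50 probe sets each, and none of the 5 members found by the lists was among the 18. The second *OsFTL1* probe set, which the lists did not find, was among them, with a parental mean under 6. In the flowering list 3 of 50 probe sets were higher in the RILs and 4 lower, and in the heat shock list 2 of 49 were higher and 3 lower, *HSP18.6* being 0.59 higher with an adjusted p of 0.25 by limma. In the defence list 0 of 29 were higher and 1 lower, and in the flavonoid list 0 of 16 and 1.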

How the data were processed

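Flag leaf RNA of 210 RILs (1 array each) and of Minghui 63 and Zhenshan 97 (3 arrays each) was measured on Affymetrix rice arrays. The deposited table holds 1 log2 value for each probe set and array. It was made by the authors with RMA (affy package, named in the submitters' processing notes). Tool versions and the array annotation release: not given in the sources used here. They were used as deposited, with 123 control probe sets left out of the rule and the tests and read only as technical measures. Since RMA had already been applied, a sequence difference under a probe is not separated from a difference in level, and present calls were not repeated.

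The members and lists were chosen with earlier results of these data known. The distance of RILs from parents was tested by limma 3.58.1 under R 4.3.3 (lmFit, contrast of the RIL mean minus the mean of both parental means, eBayes with trend), two-sided, with Benjamini-Hochberg adjustment over 57258 probe sets and a threshold of 0.05. All groups shared 1 estimate of the spread, which the RILs dominate; a fit with a separate weight for parental arrays was an alternative. Nothing in the labels ties parental replicates to separate cultures beyond the word biological, and a p-value measures the spread between these samples. Correlations over 210 lines came from Python 3.11.15 (numpy 2.4.6, scipy 1.17.1). The pairs named were picked for their r among all pairs of members, so they have no p-value here. Line blocks were made of 10 consecutive line numbers and had no term in the limma fits. The routines were tested on simulated data.

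Names came from the gene table for the array, with symbols from assembly ASM3414082v1, and from the part of the eQTL table of the paper that was given, which was used for loci and descriptions only. No coordinate and no sequence is given. The genes named are the 15 members of highest SD, the 5 of highest and the 5 of lowest skewness, up to 10 members in 2 clusters, up to 5 members of each co-varying group, the 5 largest differences from the parents in each direction, members on functional lists and the members nearest each threshold. The lists beyond those printed (jasmonate, abscisic acid, photosynthesis, senescence, phosphate, nitrogen and metal transport, starch, cell wall, cytochrome P450, peroxidase, transposon, ribosome) found no member. All lists could search only the 5449 of 57258 probe sets, 20 of them members, that had a name or description. The senescence list did not find *OsDOS*. Alternatives were another measure of spread, other limits of the rule, each parental array left out, quantile normalization, a block for replicate number, Spearman correlation, stricter clusters and removal of line blocks or of the first 5 principal components. Regression on the 28S probe set, the range of OsAffx identifiers, counts outside group 1 and counts by parental mean were added after seeing the data. Phenotypes, eQTLs and genotypes were not analysed here.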

Additional observations from a re-analysis of the deposited data

How the results depend on the processing

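The 18 calls among the members were 7 with array weights by group (7 higher, 0 lower, and 2675 of all probe sets against 4286), and with each parental array left out in turn they ran from 7 to 16, with 7 to 14 higher, 0 to 3 lower and 2426 to 4393 of all probe sets. Under quantile normalization 1 lower call was made instead of 2. Outside group 1 there were 6 calls, of which only the 2 lower ones had a parental mean of 6 or more. Among all members with a parental mean of 6 or more there were 11 calls, with 9 higher. Of the 18 calls, 6 were made in all 11 alternative fits. Over 21 probe sets and these fits no difference changed sign. The 21 were the 18 called members together with the members of largest difference in either direction. Their stable sign was thus nearly fixed by how they were picked. Among the other members some differences kept their sign and some did not. In Os.17125.1.S1_at the difference ran from -0.425 to 0.369 over the 11 fits. With the replicate number as a replicate block, 17 members were called. The numbers do not pair the parental arrays: the deviations of same-numbered arrays from their parental means had an r across all probe sets of -0.202, -0.26 and -0.0706, so this fit is no paired comparison.

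Of the 100 members, 66 were kept with a parental difference under 0.2, 62 with one under 0.5, and 54 to 74 with 1 parental array left out; the other alternatives kept 72 to 97. Of 28 members in 2 clusters, 14 remained with Ashman's D over 3, and 27 of the 28 had 2 clusters under quantile normalization too. With the range of the 2 parental means, the median member had 95.7% of the lines outside, against 51.4%. With 28S regressed out, 244 pairs had an r of 0.60 or more, against 428, and 79 of the 244 lay outside group 1. On the deposited values 75 of the 428 did. With 5 principal components removed, 3 pairs were at -0.52 or less, against 36, and the median r was 0.194 within group 2, 0.240 within group 3 and -0.0886 between them. The cause of these changes was not tested.

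A RIL rests on 1 array, so the error of a line value is not estimated. With 3 arrays a parent, members alike in mean can differ by the within-parent SD, which limits the rule most in groups 2 and 3.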
